A study of Mus musculus with 9 samples.

Results

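The genes described here are 10 that write, copy, remove or protect DNA methylation in the early mouse embryo: Dnmt1, Uhrf1, Dnmt3a, Dnmt3b, Dnmt3l, Tet1, Tet2, Tet3, Dppa3 and Zfp57. They were chosen by name, with earlier results of these data known, and each is described whatever its result. All 10 were among the 24454 genes of the deposited count table. Each of the 10 also had enough counts to be among the 16964 genes tested. RNA was sequenced from ICR mouse embryos cultured in vitro from the zygote to the 2-cell stage, with 3 embryos pooled in each of 9 libraries. The 3 groups of 3 libraries were control embryos, embryos given a high glucose load, and embryos given that load together with rat serum carrying the drug labelled ZGW. The labels give neither the glucose dose nor whether the control and high glucose embryos received drug-free serum, so an effect of the drug and one of rat serum cannot be told apart. Library totals ran from 11934924 to 16916343 counts. Any p-value here reflects only how much these pools differed from one another. Each pool held 3 embryos, so differences between embryos or cells within a pool cannot be seen.

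DNA methylation is copied to the new strand after replication by DNMT1, which UHRF1 brings to hemimethylated sites, and is laid down anew by DNMT3A and DNMT3B, with DNMT3L as a cofactor that has no catalytic activity of its own. TET enzymes oxidise 5-methylcytosine, and TET3 stored in the oocyte acts on the paternal genome of the zygote. After fertilisation most methylation of the gametes is lost, while DPPA3 (also called STELLA or PGC7) shields the maternal genome from oxidation and ZFP57 keeps methylation at imprinted regions.

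The 2-cell embryos held very unequal amounts of these transcripts. On a scale of CPM per kb of mean transcript length (CPM being counts relative to the TMM-scaled library total), the mean level over the 9 libraries was 20471 for Dppa3, 482 for Zfp57, 68.6 for Uhrf1, 48.5 for Tet3, 44.7 for Dnmt3l, 19.6 for Dnmt3a, 8.54 for Dnmt1, 3.03 for Dnmt3b, 2.56 for Tet1 and 2.00 for Tet2. Only Dppa3, Zfp57 and Dnmt1 had ranges over the 9 libraries that did not overlap with the range of the gene next below them. Tet1 was above Tet2 in 5 of 9 libraries and Dnmt3b above Tet1 in 6 of 9, so the order among these 3 was not separated from the spread. With the longest transcript as the length instead, Tet3 and Dnmt3l changed places, as did Dnmt3a and Dnmt1, and Tet1 and Tet2.

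**Figure D1:**
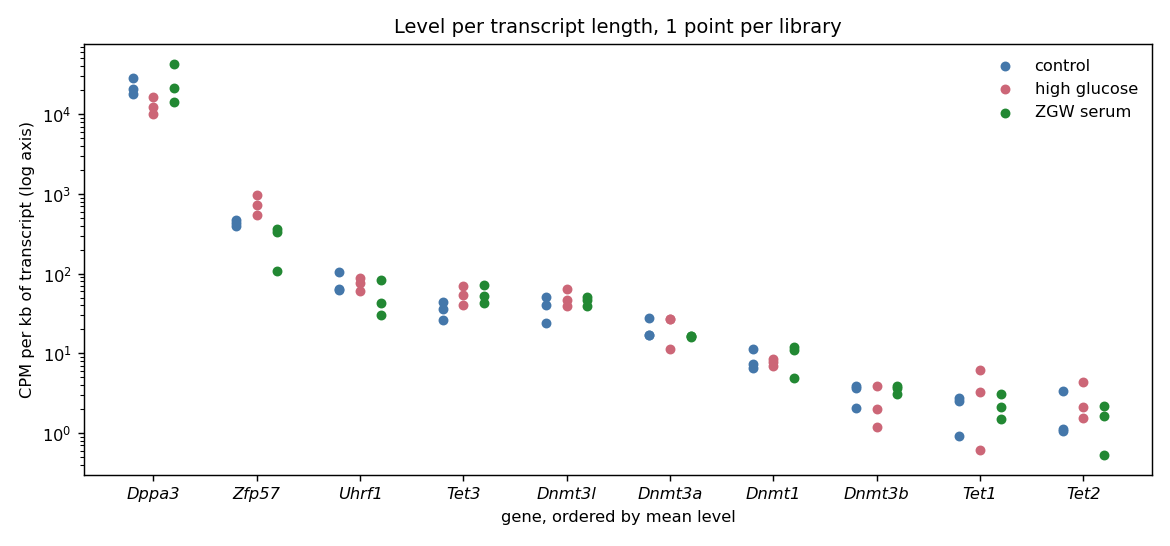
Level of each of the 10 genes in each of the 9 libraries, in CPM per kb of mean transcript length on a log axis, with points for libraries marked by group. Dppa3 and Zfp57 lie above all other genes in every library, and Tet1, Tet2 and Dnmt3b lie lowest.

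Within families the order was steadier. Tet3 was above Tet1 in 9 of 9 libraries, with a ratio of levels per kb from 8.57 to 113, and above Tet2 in 9 of 9, with a ratio from 10.7 to 135. Dnmt3l was above Dnmt3a in 9 of 9 libraries, at a ratio from 1.44 to 3.49, and Dnmt3a was above Dnmt3b in 9 of 9, at a ratio from 4.25 to 23.1. With the longest transcript as the length these ratios were 3.96 to 9.60 and 1.25 to 6.77, again above 1 in 9 of 9 libraries, and Tet3 was 16.4 to 217 times the level of Tet1. Uhrf1 was above its partner Dnmt1 in 9 of 9 libraries, at a ratio from 2.51 to 16.9. The scale divides by annotated transcripts, and which transcripts these embryos used was not analysed here.

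High glucose against control asks what the glucose load changed, ZGW serum against high glucose what the serum changed on top of it, and ZGW serum against control how far the treated embryos stood from untreated ones. In none of these 3 comparisons did a member pass the test. The quasi-likelihood test of edgeR, with Benjamini-Hochberg adjustment over the 16964 genes called 0 of 10 members between high glucose and control, where it called 0% of all genes. It likewise called 0 of 10 members between ZGW serum and high glucose, beside 0% of all genes, and 0 of 10 between ZGW serum and control, beside 0%. limma-voom and DESeq2 also called 0 of the 10 members in each comparison, while DESeq2 called 1.15%, 1.91% and 2.76% of the genes it tested in these 3 comparisons, in the same order.

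At an unadjusted p under 0.05 in edgeR, 0 of 10 members were counted between high glucose and control, beside 7.39% of all genes. Between ZGW serum and high glucose there were 2 of 10, Zfp57 and Dppa3, beside 8.68% of all genes, and between ZGW serum and control 0 of 10, beside 9.86%. The groups did not overlap in CPM for 2 members between high glucose and control (13.7% of all genes), for 1 between ZGW serum and high glucose (17.3%) and for 2 between ZGW serum and control (16.3%). These were Dppa3 and Zfp57 in the first comparison, Zfp57 in the second, and Dnmt3a and Zfp57 in the third. High glucose was above control in 6 of 10 members, with a median log2 fold change of 0.24 beside -0.02 over all genes. ZGW serum was above high glucose in 4 of 10, with a median of -0.29 beside 0.00, and above control in 6 of 10, with a median of 0.14 beside 0.00. The first and second comparisons share the high glucose libraries, so opposite signs in them are not independent.

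**Figure D2:**
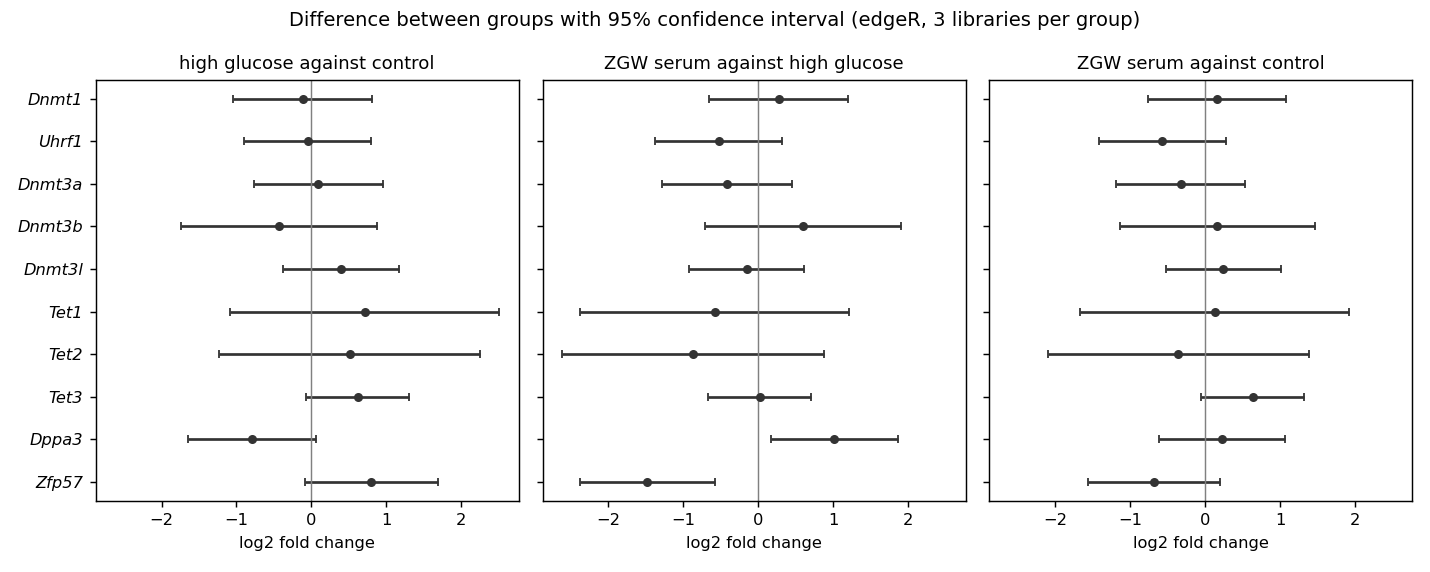
Log2 fold change of each of the 10 genes in the 3 comparisons (edgeR), with points for estimates and bars for 95% confidence intervals. Intervals lie clear of 0 only for Dppa3 and Zfp57 between ZGW serum and high glucose, before adjustment for the number of genes tested.

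The maintenance genes differed little between groups for the spread they had. Dnmt1 (GRCm38 chr9:20907209-20959888, minus strand), the maintenance methyltransferase, was at 25.9, 23.3 and 39.6 CPM in control replicates 1 to 3, at 24.4, 30.2 and 27.6 in the high glucose libraries and at 39.0, 42.7 and 17.4 in those with ZGW serum. The ZGW serum group held both the highest and the lowest library, and all groups overlapped. Its log2 fold change was -0.11 ± 0.42 (SE) between high glucose and control, with a 95% interval from -1.04 to 0.81, and 0.27 ± 0.42 between ZGW serum and high glucose, with an interval from -0.66 to 1.20.

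RefSeq places several transcription starts in Dnmt1, and their surroundings differ in CpG, the dinucleotide that these enzymes methylate. A pair of its promoter windows (300 bases, from 250 before a start to 50 after it, build GRCm38.p6) is shown, with each CpG in capitals, because gene counts add up all starts and the windows show how unlike these are. The window at chr9:20952574-20952873 (minus strand) holds 33 CpG, a number that 8.6% of all 32851 windows in the RefSeq table reach, and the one at chr9:20959839-20960138 (minus strand) holds 2, which 85.9% reach. These are the extremes for Dnmt1, and a further window at chr9:20952930-20953229 (minus strand) holds 12 CpG and is not shown.
Dnmt1, 33 CpG: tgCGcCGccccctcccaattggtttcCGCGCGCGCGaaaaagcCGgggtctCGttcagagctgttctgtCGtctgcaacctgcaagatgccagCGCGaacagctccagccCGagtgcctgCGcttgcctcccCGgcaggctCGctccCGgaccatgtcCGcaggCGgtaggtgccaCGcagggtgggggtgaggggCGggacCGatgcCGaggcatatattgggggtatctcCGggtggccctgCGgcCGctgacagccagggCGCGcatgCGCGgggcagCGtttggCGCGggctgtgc
Dnmt1, 2 CpG: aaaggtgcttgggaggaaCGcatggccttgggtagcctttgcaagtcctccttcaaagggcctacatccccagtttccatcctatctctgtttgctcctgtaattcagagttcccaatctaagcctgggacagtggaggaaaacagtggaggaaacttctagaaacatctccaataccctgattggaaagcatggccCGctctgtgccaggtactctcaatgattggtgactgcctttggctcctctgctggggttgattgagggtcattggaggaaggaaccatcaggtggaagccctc

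Uhrf1 (chr17:56303321-56323486, plus strand), which reads hemimethylated DNA and recruits DNMT1, was at 142, 239 and 147 CPM in control, at 174, 135 and 201 in the high glucose libraries and at 96.9, 68.7 and 189 in those with ZGW serum. A pair of the ZGW serum libraries lay below every other library, and replicate 3 lay among them. The log2 fold change was -0.53 ± 0.38 (SE) between ZGW serum and high glucose and -0.57 ± 0.38 between ZGW serum and control. Of the 50-base stretches in Uhrf1 transcripts, 15.4% also occur in transcripts of other genes, so its counts are uncertain by reads shared with them. Gm5648, which is not a row of the table, held 638 shared positions and Gm15953 held 31. Across the 9 libraries Dnmt1 and Uhrf1 had a Pearson correlation of -0.77 in log2 CPM, the lowest among the 45 pairs of members, given here as a description of libraries that share groups and depth.

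The de novo genes were also within their spread. Dnmt3a (chr12:3806007-3914443, plus strand) was at 64.4, 39.5 and 39.2 CPM in control, at 63.2, 26.5 and 63.1 in the high glucose libraries and at 38.6, 38.6 and 36.9 in those with ZGW serum. The 3 ZGW serum libraries lay close together and just below the lowest control library, while the other groups each held libraries on both sides of a wide gap. The log2 fold change between ZGW serum and control was -0.33 ± 0.39 (SE), with an edgeR adjusted p of 0.825. The sources used here do not give the counting strand, so reads of Dnmt3aos, which runs antisense to Dnmt3a and has its own row, cannot be told apart from it.

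Dnmt3b (chr2:153649450-153687730, plus strand) was lower, at 12.8, 13.6 and 7.24 CPM in control, at 4.16, 7.01 and 13.8 in the high glucose libraries and at 13.8, 12.98 and 10.9 in those with ZGW serum. High glucose held the lowest pair of libraries and one of the highest. Its log2 fold change was -0.43 ± 0.59 (SE) between high glucose and control and 0.60 ± 0.59 between ZGW serum and high glucose. It shares 9.81% of its 50-base stretches with Dnmt3c, its close relative that silences young transposons in male germ cells, which is not a row of the table. Dnmt3l (chr10:78041947-78063622, plus strand), the cofactor of de novo methylation in oocytes, was at 48.5, 60.5 and 29.2 CPM in control, at 56.3, 47.8 and 77.9 in the high glucose libraries and at 46.7, 60.6 and 56.2 in those with ZGW serum. Control held its lowest library and high glucose its highest, with the rest intermixed. From control to high glucose its log2 fold change was 0.40 ± 0.35 (SE). Aire lies antisense to Dnmt3l and has its own row, so the limit given for Dnmt3a holds here too.

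**Figure D3:**
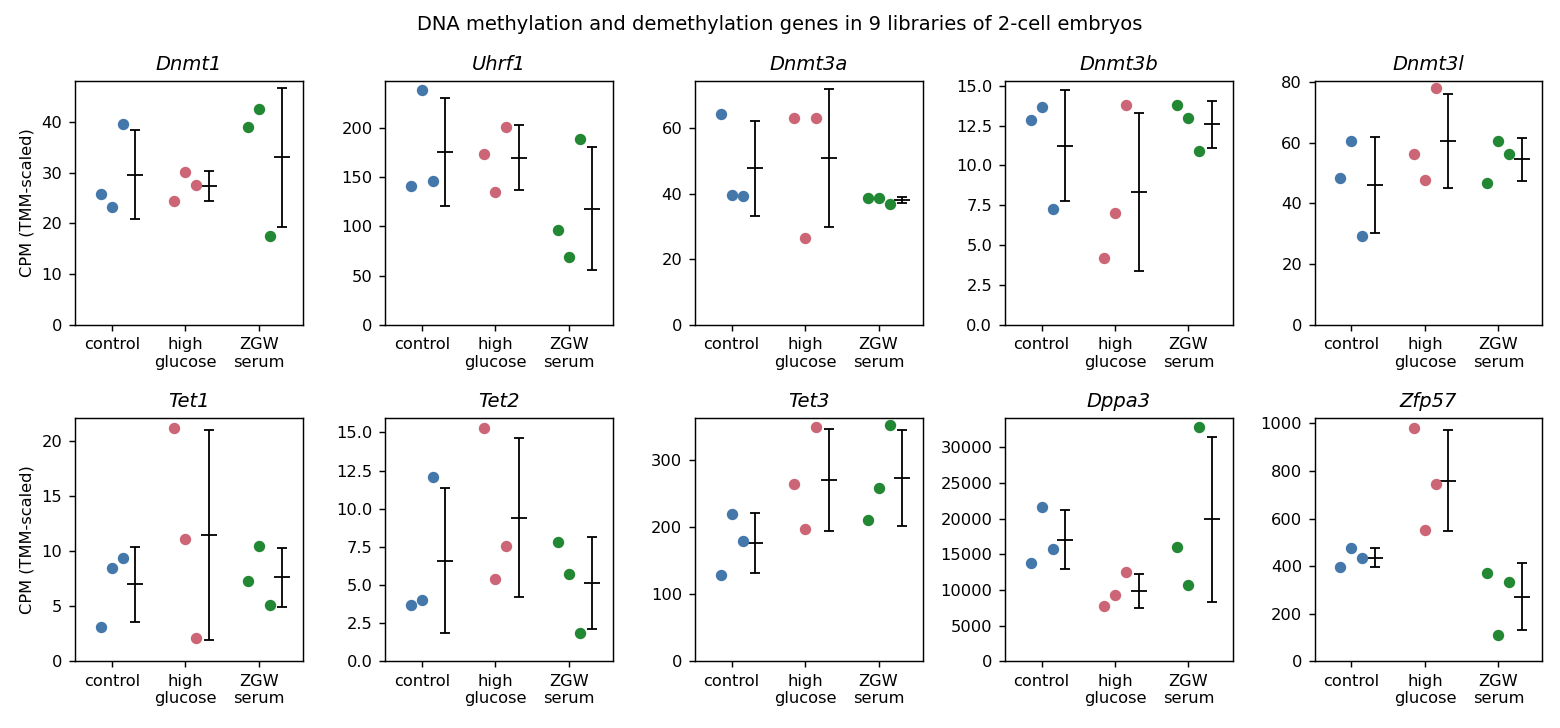
CPM of each of the 10 genes in each library, 1 panel per gene with its own axis, with points for the 3 libraries of each group and a horizontal tick and bars for their mean and SD. Zfp57 is highest in all 3 high glucose libraries and lowest in all 3 ZGW serum libraries, while most other genes overlap between groups.

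Among the oxidising enzymes, Tet3 was the abundant one. Tet3 (chr6:83362373-83459084, minus strand) was at 129, 219 and 180 CPM in control, at 263, 197 and 349 in the high glucose libraries and at 210, 258 and 351 in those with ZGW serum. Control held the lowest pair of libraries, and control replicate 2 lay above the lowest library of each of the other groups. The log2 fold change was 0.62 ± 0.31 (SE) between high glucose and control, a 1.53-fold higher level with an edgeR adjusted p of 0.712, and 0.64 ± 0.31 between ZGW serum and control, with an edgeR adjusted p of 0.534. Between ZGW serum and high glucose it was 0.02 ± 0.31, with a 95% interval from -0.67 to 0.70. B230319C09Rik lies antisense to Tet3 and has its own row, with the same limit as above.

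Tet1 (chr10:62804570-62908996, minus strand) and Tet2 (chr3:133463679-133545139, minus strand) varied most within groups, with a coefficient of variation of 69.3% and 62.6%. Tet1 was at 3.14, 8.50 and 9.43 CPM in control, at 21.2, 11.2 and 2.12 in the high glucose libraries and at 7.34, 10.5 and 5.16 in those with ZGW serum. High glucose held both its highest and its lowest library. Tet2 was at 3.72, 4.03 and 12.1 CPM in control, at 15.3, 5.39 and 7.59 in the high glucose libraries and at 7.81, 5.74 and 1.87 in those with ZGW serum, and all groups overlapped. From control to high glucose the log2 fold change interval ran from -1.09 to 2.51 for Tet1 and from -1.23 to 2.25 for Tet2. Any value within these intervals was compatible with the data, and the direction was not resolved beside the spread between libraries.

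The protecting genes carried the largest differences. Zfp57 (chr17:37001163-37010635, plus strand), a KRAB zinc finger protein that binds methylated imprinting control regions and recruits TRIM28, was at 397, 478 and 434 CPM in control, at 980, 554 and 745 in the high glucose libraries and at 373, 111 and 334 in those with ZGW serum. Every high glucose library lay above every control library, and every ZGW serum library lay below all of them, with replicate 2 far the lowest. Between ZGW serum and high glucose the level was 2.79-fold lower, from 759 ± 214 to 273 ± 142 CPM (SD, n = 3 each).

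That log2 fold change was -1.48 ± 0.41 (SE), with a 95% interval from -2.38 to -0.58. It did not pass edgeR's quasi-likelihood test, with an unadjusted p of 0.00407 and an adjusted p of 0.418. The adjusted p was 0.0570 in DESeq2 and 0.342 in limma-voom. Over the alternatives the adjusted p ran from 0.0570 to 0.851 and the log2 fold change from -1.78 to -1.10. From control to high glucose the log2 fold change was 0.80 ± 0.40 (edgeR adjusted p = 0.705), and between ZGW serum and control -0.68 ± 0.40 (edgeR adjusted p = 0.603). None of the 50-base stretches of Zfp57 transcripts occurs in another gene's transcripts.

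A pair of Zfp57 promoter windows is shown because this gene had the largest difference among the 10, with each CpG in capitals. The window at chr17:37000913-37001212 (plus strand) holds 6 CpG and the one at chr17:37002275-37002574 (plus strand) holds 9, beside a median of 7 over all windows and 14.5 over the 18 windows of the 9 members matched in the RefSeq table. A further Zfp57 window at chr17:37003416-37003715 (plus strand) holds 4 CpG and is not shown.
Zfp57, 6 CpG: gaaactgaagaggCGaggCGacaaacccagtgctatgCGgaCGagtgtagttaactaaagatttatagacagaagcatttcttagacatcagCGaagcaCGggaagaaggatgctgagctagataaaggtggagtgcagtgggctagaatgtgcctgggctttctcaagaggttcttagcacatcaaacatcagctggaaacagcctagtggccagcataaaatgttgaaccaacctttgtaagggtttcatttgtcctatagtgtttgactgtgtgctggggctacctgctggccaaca
Zfp57, 9 CpG: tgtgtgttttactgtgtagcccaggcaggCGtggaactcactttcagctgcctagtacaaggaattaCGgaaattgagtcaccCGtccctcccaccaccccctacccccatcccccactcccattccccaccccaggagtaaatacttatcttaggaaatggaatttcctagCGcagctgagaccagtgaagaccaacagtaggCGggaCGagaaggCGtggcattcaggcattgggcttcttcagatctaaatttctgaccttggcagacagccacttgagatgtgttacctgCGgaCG

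Dppa3 (chr6:122626410-122630272, plus strand) was the third most abundant of the genes tested, with 0.73% to 3.10% of all counts in a library. It was at 13735, 21702 and 15719 CPM in control, at 7720, 9337 and 12471 in the high glucose libraries and at 16094, 10746 and 32869 in those with ZGW serum. The 3 high glucose libraries lay below all control libraries, whereas ZGW serum replicate 2 lay within the high glucose range and ZGW serum replicate 3 was the highest of all. The log2 fold change was -0.79 ± 0.38 (SE) between high glucose and control (edgeR adjusted p = 0.697) and 1.02 ± 0.39 between ZGW serum and high glucose (edgeR adjusted p = 0.530).

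The second of these values rested in part on 1 library, and without ZGW serum replicate 3 it was 0.48. Over all alternatives it ran from 0.48 to 1.32, with adjusted p from 0.279 to 0.851. Between ZGW serum and control the log2 fold change was 0.22 ± 0.38, and it was -0.32 without ZGW serum replicate 3. Of the 50-base stretches in Dppa3 transcripts, 16.5% also occur in transcripts of other genes, so its counts are uncertain by reads shared with them. The share of its counts that this touches is not known here. Dppa3-ps, which is not a row of the table, held 135 shared positions, Gm15620 21 and Gm47576 18.

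Stage markers moved beside these genes. The summed level of 13 genes transcribed transiently at the 2-cell stage ran from 9874 to 19645 CPM in control, from 15178 to 24012 under high glucose and from 4416 to 11400 with ZGW serum. The sum over 12 oocyte-stored transcripts ran from 5495 to 5864 CPM in control, from 4959 to 5874 under high glucose and from 6253 to 9774 with ZGW serum. That second sum was led by 1 gene, Oosp1, which was singled out after its values were seen. Oosp1 ran from 2305 to 2763 CPM under high glucose and from 4225 to 5534 CPM with ZGW serum, and the other 11 transcripts summed to 2380 to 3414 CPM and 1851 to 4241 CPM, which overlap. Of the 12, 6 were higher and 6 lower with ZGW serum than under high glucose. The 2-cell sum did not overlap between these groups, also without its most abundant gene Gm5662 (9195 to 18157 CPM under high glucose and 2513 to 6484 CPM with ZGW serum), and all 13 genes had a lower value with ZGW serum. This is the comparison in which Zfp57 and Dppa3 differed most, and the part of these markers in that difference was not tested. All 12 and all 13 of these markers were above 1 CPM in every group. Of 14 cumulus and granulosa markers, 8 to 10 were under 1 CPM in a group, and their sum ran from 23.0 to 37.5 CPM in control, from 8.81 to 24.8 CPM under high glucose and from 11.8 to 20.3 CPM with ZGW serum, the last wholly below control. Of 10 blood markers, 6 or 7 were under 1 CPM, and their sum ran from 86.4 to 367 CPM in control and high glucose and from 324 to 531 CPM with ZGW serum. Hba-a1 and Hba-a2 led that sum, at a mean of 153 CPM each over the 9 libraries. Of 11 stroma and epithelium markers, 4 or 5 were under 1 CPM, and their sum ran from 65.4 to 220 CPM in control and high glucose and from 26.3 to 72.2 CPM with ZGW serum. Epcam (mean 41.4 CPM over the 9 libraries), Pecam1 (21.4) and Krt18 (14.7) led that sum. The stromal genes Col1a2, Col3a1, Dcn and Acta2 each had a mean under 1 CPM. The part of these lists in the results was not tested.

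**Figure D4:**
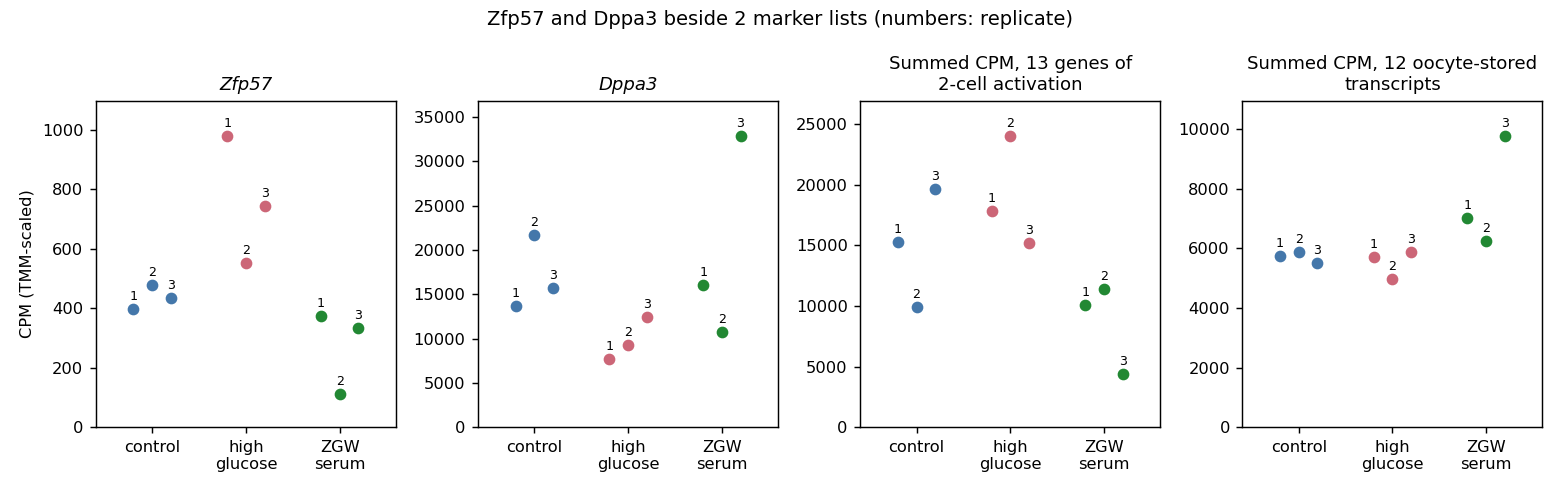
Zfp57 and Dppa3 in each library beside the summed 2-cell activation and oocyte-stored markers, in CPM, with points for libraries by group and numbers for replicates. The 2-cell sums with ZGW serum (4416 to 11400) lie below those under high glucose (15178 to 24012), as Zfp57 does.

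Beyond the 10 genes, 8 lists of their partners and targets held 131 gene symbols, of which 118 were tested. Dnmt3c and Gm14490 are symbols of the same gene, as are Vprbp and Dcaf1, so the distinct genes are fewer. edgeR's quasi-likelihood test called 0 of the 118 in each comparison. For genes named from these lists, a DESeq2 adjusted p is printed only where it was under 0.05. The DESeq2 count over the 118 is not given here, so those calls cannot be set beside its share of all genes. At an unadjusted p under 0.05 there were 7 higher and 2 lower between high glucose and control (7.63%, beside 7.39% of all genes), 2 higher and 5 lower between ZGW serum and high glucose (5.93%, beside 8.68%), and 5 higher and 6 lower between ZGW serum and control (9.32%, beside 9.86%). These shares were near or below the background.

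**Figure D5:**
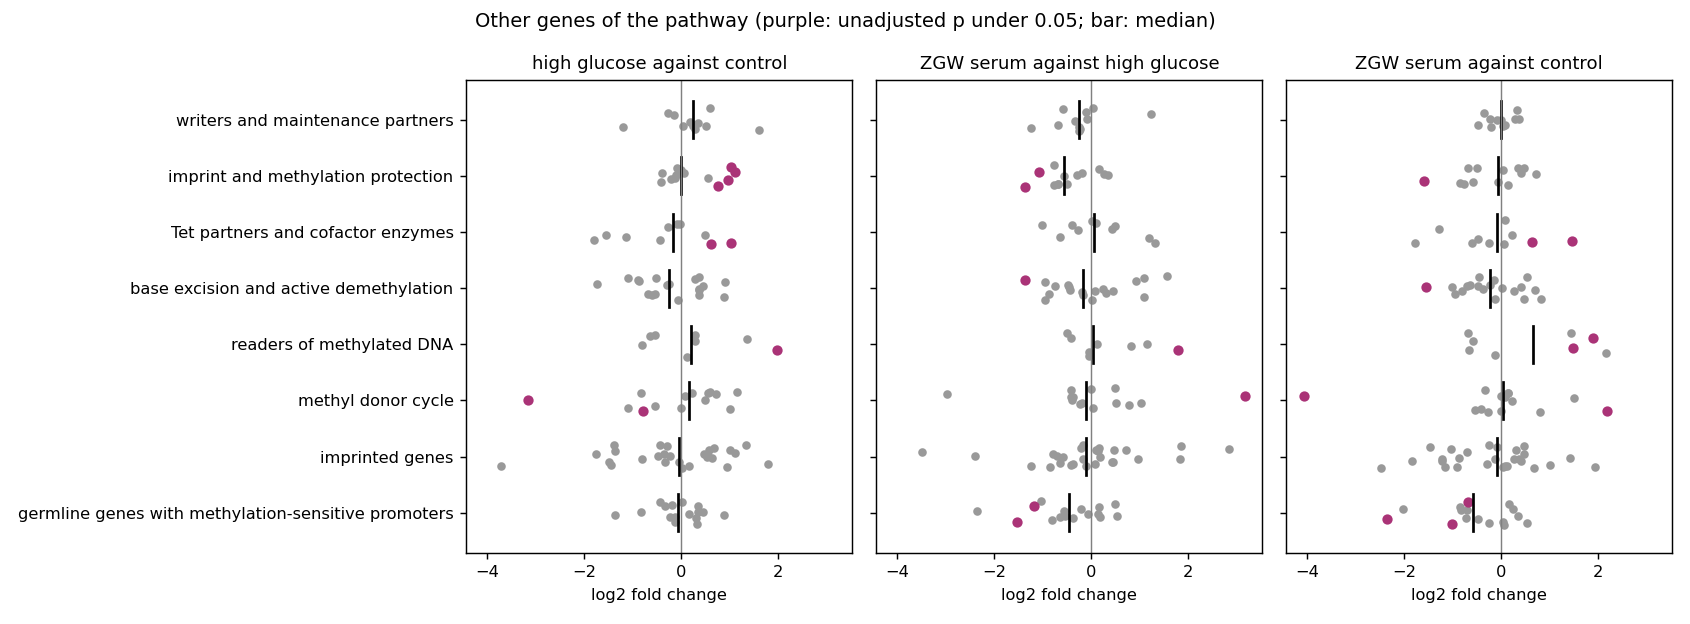
Log2 fold changes of the tested genes of the 8 partner and target lists in the 3 comparisons (edgeR), with points for genes (purple at an unadjusted p under 0.05) and a bar for the median of each list. The medians lie between -0.58 and 0.66, and 0 of the 118 genes passed the test.

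Partners of imprint protection, 13 tested, had a median log2 fold change of -0.57 between ZGW serum and high glucose, with 10 lower and 3 higher, beside a median of 0.00 over all genes. At an unadjusted p under 0.05 in edgeR, 4 of the 13 were higher and 0 lower under high glucose than in control, beside 7.39% of all genes. Between ZGW serum and high glucose 0 were higher and 2 lower (8.68% of all genes), and between ZGW serum and control 0 were higher and 1 lower (9.86%). Atrx, a chromatin remodeller that deposits histone H3.3 with DAXX, was at 85.7, 53.9 and 115 CPM in control, at 207, 143 and 196 in the high glucose libraries and at 65.1, 84.0 and 111 in those with ZGW serum. High glucose stood clear above both other groups for Atrx, as it did for Zfp57. Its log2 fold change was 1.10 ± 0.34 (SE) between high glucose and control (edgeR adjusted p = 0.627) and -1.07 ± 0.34 between ZGW serum and high glucose (edgeR adjusted p = 0.465). Cbx3, which encodes the heterochromatin protein HP1 gamma, was at 288, 301 and 219 CPM in control, at 316, 206 and 175 in the high glucose libraries and at 132, 70.5 and 66.9 in those with ZGW serum. All 3 ZGW serum libraries lay below the rest for Cbx3, with a log2 fold change of -1.58 ± 0.34 against control (edgeR adjusted p = 0.338, DESeq2 adjusted p = 0.00345). Arid4a had a log2 fold change of 0.97 ± 0.35 between high glucose and control.

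Writers and maintenance partners, 11 tested, were higher under high glucose than in control in 8 and lower with ZGW serum than under high glucose in 9. In the second comparison Hells, a remodeller needed for methylation of repeats, had a log2 fold change of -0.69 ± 0.33 (SE), Setd2, which writes H3K36 trimethylation, of -0.58 ± 0.34, and Uhrf2, the relative of Uhrf1, of 1.24 ± 0.71. Among 10 tested Tet partners and cofactor enzymes, Vprbp, a CUL4 ligase receptor that modifies TET proteins, had a log2 fold change of 1.46 ± 0.43 between ZGW serum and control (edgeR adjusted p = 0.402, DESeq2 adjusted p = 0.0230). Sin3a, the scaffold of a histone deacetylase complex that binds TET1, was at 0.63 ± 0.28 in that comparison, and Cul4b at 0.49 ± 0.27 between high glucose and control.

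Base excision and demethylation genes, 19 tested, were lower in 12 and higher in 7 between ZGW serum and control. Smug1, a uracil and hydroxymethyluracil glycosylase, had a log2 fold change of -1.54 ± 0.55 (SE) there, and Parp2, a strand break sensor, of -1.01 ± 0.57. Neil3, a DNA glycosylase, was at -1.36 ± 0.54 between ZGW serum and high glucose. Of 8 tested genes listed as readers of methylated DNA, only 2 were over 10 CPM. Mbd5 is of the MBD domain family but is not known to bind methylated CpG. It was at 4.60, 9.24 and 11.7 CPM in control, at 37.8, 26.3 and 36.1 in the high glucose libraries and at 35.4, 13.4 and 22.2 in those with ZGW serum. Its control libraries lay below all others, with a log2 fold change of 1.97 ± 0.52 between high glucose and control (edgeR adjusted p = 0.627, DESeq2 adjusted p = 0.0163). Mbd2, which binds methylated CpG, was at -0.58 ± 0.40 between ZGW serum and control.

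The methyl donor cycle, 14 tested, makes the S-adenosylmethionine that the DNMT enzymes use. Shmt2, the mitochondrial serine hydroxymethyltransferase, had a log2 fold change of -0.79 ± 0.32 (SE) between high glucose and control, and Mat2b, the regulatory subunit of the S-adenosylmethionine synthetase, of 0.60 ± 0.34. Mat2a, its catalytic subunit, was at -0.54 ± 0.47 between ZGW serum and control. Germline genes with methylation-sensitive promoters, 16 tested, were lower with ZGW serum in 11 against high glucose and in 10 against control, with medians of -0.46 and -0.58. Hormad1, a protein of the meiotic chromosome axis, had a log2 fold change of -2.36 ± 0.64 between ZGW serum and control (edgeR adjusted p = 0.384, DESeq2 adjusted p = 0.0165). Mael, of the piRNA pathway, was at -0.69 ± 0.30 in that comparison. Brdt, a bromodomain protein known from testis, was abundant in these embryos, at 3186 to 4213 CPM in the control and high glucose libraries. With ZGW serum it was at 3151, 811 and 1088 CPM, so replicate 1 lay near the control libraries. Its log2 fold change was -1.18 ± 0.43 between ZGW serum and high glucose.

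The list of imprinted genes holds mostly genes of clusters with germline methylation marks, and also Gab1, Jade1 and Slc38a4, which are known for imprinting by maternal H3K27 trimethylation instead. Of its 27 tested genes, 0 had an unadjusted p under 0.05 in edgeR in any of the 3 comparisons, beside 7.39%, 8.68% and 9.86% of all genes. Their median log2 fold change was -0.04, -0.11 and -0.09 in the 3 comparisons in the order above. Mest had a log2 fold change of -0.84 ± 0.44 (SE) between ZGW serum and high glucose, Cdkn1c, an inhibitor of the cell cycle, of 0.72 ± 0.48, and Snrpn of -0.90 ± 0.45 between ZGW serum and control. Only 10 of the 27 were over 10 CPM. The hexamer TGCCGC, which ZFP57 binds when methylated, was searched on both strands (GCGGCA on the other) in the RefSeq promoter windows. It occurs in 24.0% of the 50 windows of the imprinted list (12 windows), in 3 of the 18 windows of the members (16.7%) and in 11.6% of all 32851 windows. Counted by gene, so that overlapping windows count once, it occurs for 11 of 29 imprinted genes (37.9%), 2 of 9 members (22.2%) and 13.1% of all genes in the table. A gene was counted if any of its windows matched, and windows per gene differed between the sets. There were 50 windows for the 29 imprinted genes, 18 for the 9 members and 32851 for all 27025 genes. The hexamer holds a CpG, and the imprinted windows had a median of 15.5 CpG beside 7 over all windows. The parts of window number and CpG content in these shares were not tested. A match in a window is a description of sequence, and methylation was not measured.

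The windows of Mest (chr6:30737800-30738099, plus strand), with 2 matches, and of Zdbf2 (chr1:63200108-63200407, plus strand), with 3, are shown as examples that hold the hexamer more than once, with each match in capitals. Windows of Nap1l5 (chr6:58907077-58907376, minus strand) and of the member Dnmt3a (chr12:3806910-3807209, plus strand) also hold 2 matches each and are not shown. Zdbf2 was named after the matches were seen.
Mest: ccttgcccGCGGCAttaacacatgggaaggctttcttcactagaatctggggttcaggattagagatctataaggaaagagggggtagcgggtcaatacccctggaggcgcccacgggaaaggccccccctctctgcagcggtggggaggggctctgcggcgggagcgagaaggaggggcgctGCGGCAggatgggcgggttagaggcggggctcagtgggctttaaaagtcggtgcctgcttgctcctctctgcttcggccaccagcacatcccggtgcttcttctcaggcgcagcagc
Zdbf2: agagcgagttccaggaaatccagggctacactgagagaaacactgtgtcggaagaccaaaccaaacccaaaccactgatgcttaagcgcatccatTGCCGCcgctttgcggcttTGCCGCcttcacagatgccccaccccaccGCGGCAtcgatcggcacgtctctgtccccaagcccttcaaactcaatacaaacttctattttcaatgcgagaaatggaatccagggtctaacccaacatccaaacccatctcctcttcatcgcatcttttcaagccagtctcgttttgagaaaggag

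The genes whose log2 CPM over the 9 libraries was most like that of a member, among 6901 candidates, were found for 3 members by Pearson correlation. For Dnmt1 they were Wdr77 (0.91), Ssna1 (0.91) and Mki67 (0.89). For Tet3 they were Atl1 (0.97), Ctbp2 (0.96) and Znfx1 (0.96), and for Dppa3 they were Psmb3 (0.95), Hcfc1r1 (0.94) and B9d1 (0.93). These points share libraries and groups, and the values are descriptions of the highest among many candidates. Among the members themselves the highest correlation was 0.73, between Uhrf1 and Zfp57.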

How the data were processed

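RNA was measured in 9 libraries of pooled 2-cell embryos. The table that the authors deposited holds whole-number read counts by gene symbol, not normalized. The submitters' processing notes name Trim Galore and mm10. Not given in the sources used here were the aligner, counter, annotation, strand and handling of reads with several matches. Groups came from the labels. edgeR 4.0.16 (R 4.3.3) fitted all 9 libraries with TMM factors, its filter at a minimum count of 10, robust quasi-likelihood tests and Benjamini-Hochberg adjustment over 16964 genes at a threshold of 0.05, after tests on simulated data. Intervals are 95% and unadjusted. DESeq2 1.42.0, limma-voom (limma 3.58.1), other scalings and filters, the replicate block and left-out libraries were alternatives. Positions and lengths were taken from GENCODE M21 on GRCm38 (equal to mm10), and promoter windows from RefSeq on GRCm38.p6. Named were all 10 members and the 3 genes of lowest p per list with a mean of at least 10 CPM. On the list of readers only 2 qualified. Named too were the 3 genes most like Dnmt1, Tet3 and Dppa3. The members and lists were chosen with earlier results of these data known. Same-numbered libraries of different groups had deviations correlated from -0.03 to 0.17 (mean 0.05), beside -0.15 to 0.09 (mean -0.02) for other pairs. In 11 of 18 cases the highest correlation was with the same number. The main fit did not pair them, and whether the numbers mark pairs was not settled.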

Additional observations from a re-analysis of the deposited data

How the results depend on the processing

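For the 10 members, 509 of 540 alternative values kept the direction, 31 reversed and none passed the threshold, and 16 of 30 log2 fold changes reversed in no alternative, those of Zfp57 included. Of 414 values for the 23 named partner and target genes, 409 kept direction and side of the threshold, 4 passed it (the DESeq2 calls given above) and 1 reversed. DESeq2 called 204, 315 and 455 genes in the 3 comparisons where edgeR called 0, and the cause was not tested. Between ZGW serum and control, 1 gene was called by limma-voom, 1 with no filter on low counts and 1 with a filter of 10 counts in 6 libraries. With the replicate number as a block edgeR called 0 genes in each comparison, and Zfp57 was at -1.55 between ZGW serum and high glucose (adjusted p = 0.390). Reversed log2 fold changes were those of Tet3 between ZGW serum and high glucose, at -0.015 by DESeq2, -0.10 by limma-voom, -0.033 with no filter and -0.17 with both control replicate 1 and ZGW serum replicate 3 left out. That double omission gave -0.46 for Dppa3 and 0.23 for Mat2a between ZGW serum and control. limma-voom gave -0.11 and 0.29 for Tet1 in the first and second comparison and -0.0013 for Dppa3 in the third, and the block gave -0.043 for Tet1 in the third. The cause of these reversals was not tested. Leaving out 1 library at a time reversed further values, with these ranges of log2 fold change. For high glucose against control, the value ran for Uhrf1 from -0.19 to 0.24, Dnmt3a from -0.091 to 0.37, Dnmt1 from -0.26 to 0.12, Tet1 from -0.081 to 1.20, Tet2 from -0.025 to 1.25. For ZGW serum against high glucose, the value ran for Tet1 from -1.08 to 0.20, Tet3 from -0.18 to 0.24, Dnmt3l from -0.31 to 0.061. For ZGW serum against control, the value ran for Tet1 from -0.23 to 0.37, Dnmt3b from -0.11 to 0.32, Dnmt3l from -0.036 to 0.49, Tet2 from -0.79 to 0.37, Dnmt1 from -0.10 to 0.49, Dppa3 from -0.32 to 0.49. Upper-quartile scaling moved the median of all genes by 0.14 between ZGW serum and high glucose and by 0.11 between ZGW serum and control and reversed no member. Tet1 and Tet2 had 21 to 280 counts per library and varied by 69.3% and 62.6% within groups, while Dnmt3b, at 55 to 244 counts, varied by 33.6%.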
